A study of Mus musculus with 6 samples.

Results

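The genes examined encode the insulin-like growth factor (IGF) system: 2 ligands (*Igf1* and *Igf2*), 2 receptors (*Igf1r* and *Igf2r*) and 6 binding proteins (*Igfbp2* to *Igfbp7*). They were taken by gene name from a table of 55401 genes, and all 10 were found once and were detected in every library. RNA came from lymphatic endothelial cells (LECs), the lining cells of lymphatic vessels, which were sorted out of WT mouse dura mater by CD31, podoplanin and LYVE-1, with CD45 on leukocytes used to leave those cells out. Per the study's methods the animals were male C57BL/6J mice that had received an adeno-associated virus (AAV) into the cisterna magna. In the AAV-VEGF-C group the virus encoded mouse full-length VEGF-C, the main lymphatic growth factor, and in the AAV-CTRL group a soluble part of the receptor VEGFR-3 that does not bind VEGF-C. Each group had 3 libraries, each from the pooled meninges of 10 to 12 animals in 1 of 3 repeats of the experiment, so the libraries are numbered 1 to 3 in both groups. Expression of an AAV gene is not limited to LECs, and each library averages over its pool.

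IGF-I and IGF-II are secreted growth factors that act through the IGF-I receptor, a tyrosine kinase that feeds the PI3K-AKT and MAPK pathways. The IGF-II receptor, which also carries lysosomal enzymes as the mannose 6-phosphate receptor, removes IGF-II from the cell surface. The binding proteins hold IGFs in fluid and matrix, lengthen their life and limit or deliver them to the receptor, and proteases such as PAPP-A and HTRA1 release the bound factor. In meninges and other connective tissues fibroblasts are a known source of IGF-II and of several binding proteins, and endothelial cells are known to make binding proteins of their own.

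The libraries held from 6530269 to 12399498 counts in AAV-CTRL and from 564475 to 3261935 in AAV-VEGF-C, so every AAV-VEGF-C library was the shallower one and depth cannot be told apart from treatment. Counts relative to the library total (CPM) in 2187 genes of olfactory, vomeronasal and taste receptors, keratin-associated proteins and defensins, families with no known use in endothelium, came to 165 to 298 CPM for AAV-CTRL and 2996 to 7190 CPM for AAV-VEGF-C. All 8 lymphatic markers were detected in every library, with a summed abundance, in TPM (the same kind of unit, corrected for gene length), of 461 to 574 TPM for AAV-CTRL and 149 to 336 TPM for AAV-VEGF-C. Markers of fibroblasts, a cell the sort was not meant to keep, were present as well, and 7 of them summed to 1031 to 2157 TPM and 260 to 857 TPM. In such bulk samples fewer cells of a type and less RNA per cell cannot be told apart.

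Transcripts of the IGF system were abundant in the dural preparations. *Igfbp5*, whose product binds matrix as well as IGFs, was at 1394, 593 and 1329 TPM in AAV-CTRL 1, 2 and 3, where it ranked 24, 75 and 43 among all genes of its library. In AAV-VEGF-C it was at 140, 221 and 392 TPM and ranked 114, 134 and 93. The AAV-VEGF-C values all lay under the AAV-CTRL values, yet *Igfbp5* kept its place among the most abundant transcripts of each library. *Igfbp4*, whose product holds IGFs away from the receptor until PAPP-A cuts it, came next in the mean of either group, at 548, 394 and 473 TPM for AAV-CTRL and 91.9, 162 and 221 TPM for AAV-VEGF-C. *Igf2* followed them in the mean of both groups.

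In AAV-CTRL the order of mean TPM was *Igfbp5*, *Igfbp4*, *Igf2*, *Igfbp7*, *Igf1*, *Igfbp6*, *Igfbp2*, *Igfbp3*, *Igf2r* and *Igf1r*. Neighbours in this order separated without overlap at 4 steps, namely *Igfbp5* over *Igfbp4*, *Igf2* over *Igfbp7*, *Igf1* over *Igfbp6* and *Igfbp6* over *Igfbp2* (two-sided exact permutation p = 0.1 each, the smallest that 3 values against 3 allow). The other 5 pairs of neighbours overlapped. In AAV-VEGF-C the first 5 genes of the order were the same, and all 9 pairs of neighbours overlapped. These comparisons, like the p-values above, ignore that both genes of a pair were read in the same libraries. Within each AAV-VEGF-C library *Igfbp5* was above *Igfbp4*, *Igfbp4* above *Igf2* and *Igf2* above *Igfbp7*. The overlaps of these pairs thus reflect the spread between libraries. *Igfbp3* was eighth in AAV-CTRL and last in AAV-VEGF-C, at mean TPM values of 32.7 ± 39.1 and 4.28 ± 4.05 (SD, n = 3). In both groups the receptors had lower means than the ligands.

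**Figure D1:**
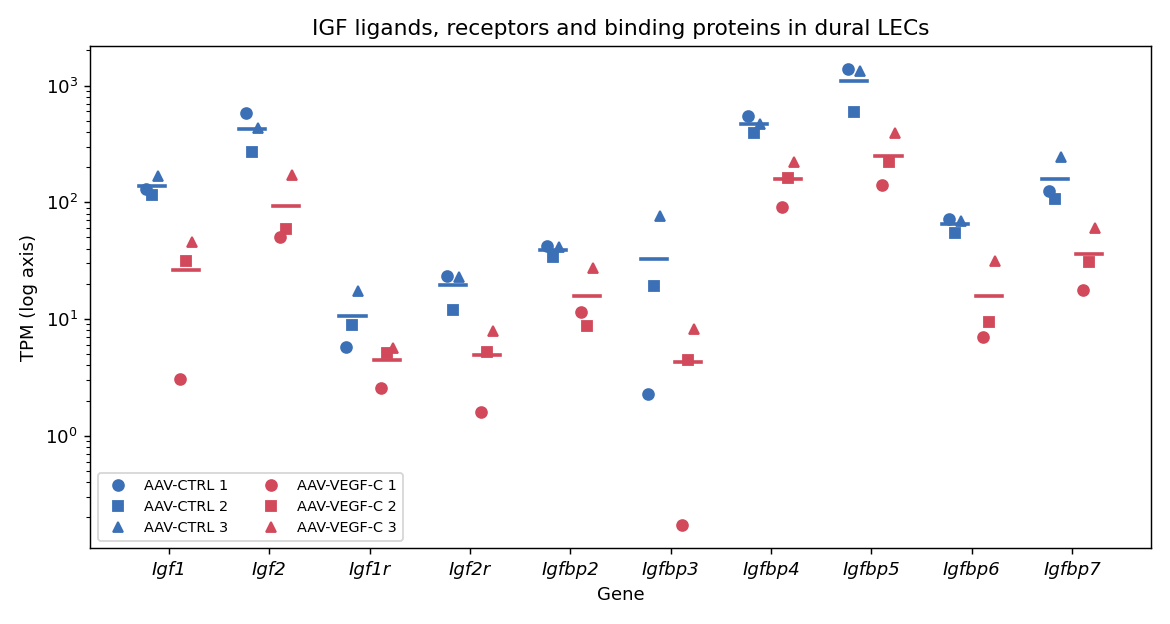
TPM (log axis) of the 10 genes in each library, with bars for the group means; circles, squares and triangles are experiments 1, 2 and 3. The AAV-VEGF-C libraries lie under the AAV-CTRL libraries for every gene except *Igfbp3*, whose AAV-CTRL values run from 2.28 to 76.8 TPM.

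The comparison of AAV-VEGF-C with AAV-CTRL asked how VEGF-C overexpression alters the transcriptome of dural LECs. *Igf1* fell (log2 fold change -1.40, SE 0.36, edgeR adjusted p 0.0443) and was the 1 gene of the 10 past the threshold. Among all 17459 genes tested 0.659% were called lower and 10.5% higher, and 0 of the 10 members were higher. Of the 7234 tested genes with a mean TPM of 5 or more, a level all 10 members exceed, 1.45% were called lower. DESeq2 called 5 members lower (1.74% of all its genes), namely *Igf1*, *Igf2*, *Igf2r*, *Igfbp5* and *Igfbp7*. EdgeR with no filter on low counts called 7 (2.64%), these and *Igfbp3* and *Igfbp6*. Limma on log2(TPM + 1), over the genes of the edgeR test, called 2 (2.49%), a fit added after the data were seen. These shares cover genes of any level. The median log2 fold change of all genes was 2.29 under DESeq2 and 1.88 with no filter. At a mean TPM of 5 or more it was -0.45 and -0.62. The count was 0 in both planned limma fits, with library size alone, with scaling on the 2000 most abundant genes, with a TPM minimum of 5, after drawing counts down to the smallest total and without any 1 of the 6 libraries. Few genes of any kind were called lower in those fits. It was 2 and 4 of 20978 genes with limma, 53 of 17459 with library size alone and 8 of 17459 with the 2000 most abundant genes. It was 0 of 7563 with the TPM minimum, 0 of 7687 after drawing down and 0 to 48 without 1 library. In the main edgeR fit, by group only with low counts filtered, 5 of the 10 were lower at an unadjusted p under 0.05 (*Igf1*, *Igf2*, *Igf2r*, *Igfbp6* and *Igfbp7*), against 9.11% of all genes, again of any level. The fitted log2 fold change was negative for all 10, and for 8 with scaling on the 2000 most abundant genes, where *Igf1r* and *Igfbp2* turned positive.

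The median log2 fold change was -1.13 over the 10 members, -0.0037 over all tested genes and -0.41 over those with a mean TPM of 5 or more. The gap between the members and that last set was -0.72. A change of scale moves all genes by nearly the same amount, so the gap could hardly differ between scales. It was -0.72 to -0.68 with DESeq2 size factors, library size alone or the 2000 most abundant genes as the scale. The last choice moved the median of all genes to 0.45. The gap was -0.37 without AAV-CTRL 1 and -0.44 without AAV-VEGF-C 2. Lower values were common among abundant genes. In TPM, 9 of the 10 members were lower in each AAV-VEGF-C library than in any AAV-CTRL library, as were 36.4% of all tested genes and 61.4% of those with a mean TPM of 5 or more (12.8% and 3.46% were higher without overlap). In CPM 8 members did not overlap, against 19.1% and 35.9%. In CPM scaled by TMM factors, the normalisation used for the test, 6 members did not overlap, against 17.6% and 33.3%.

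**Figure D2:**
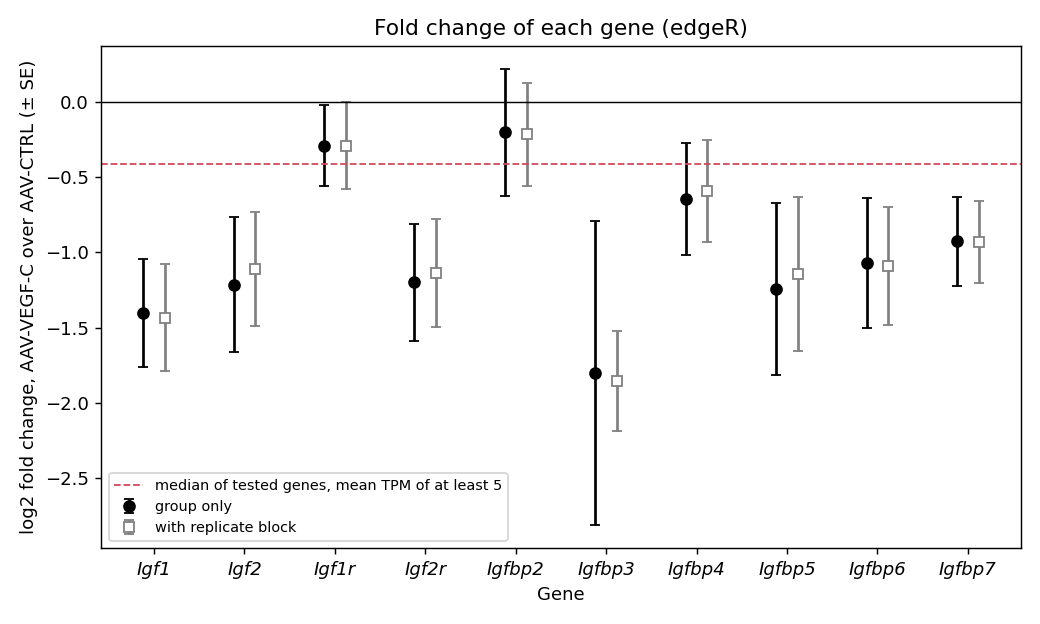
log2 fold change of each gene in AAV-VEGF-C over AAV-CTRL with its SE (edgeR), fitted by group only (filled) and with the experiment as a block (open). The dashed line at -0.41 is the median of tested genes whose mean TPM is 5 or more; *Igf1r* and *Igfbp2* lie above it, and both turn positive with scaling on the 2000 most abundant genes.

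Of the ligands, *Igf1*, the factor that mediates much of the action of growth hormone, was at 130, 115 and 168 TPM in AAV-CTRL 1, 2 and 3 and at 3.06, 31.1 and 45.3 TPM in AAV-VEGF-C. AAV-VEGF-C 1 was the lowest by far and rested on 26 counts, while the other libraries held from 184 to 4304. The mean fell from 138 ± 27.5 to 26.5 ± 21.5 TPM (SD, n = 3), a ratio of 5.20. As CPM the group means were 286 and 98.4. Within experiments 1, 2 and 3 the log2 ratio of scaled CPM was -2.35, -0.71 and -1.36. Its call was lost without any 1 of the 6 libraries (edgeR adjusted p from 0.0545 to 0.103), and without AAV-VEGF-C 1 the log2 fold change was -1.21. In those fits from 0 to 48 of all genes tested were called lower.

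*Igf2*, the fetal growth factor that is imprinted and stays active in the meninges after birth, was more abundant than *Igf1* in each library. It was at 581, 270 and 430 TPM for AAV-CTRL and at 50.8, 58.6 and 172 TPM for AAV-VEGF-C, with no overlap. The log2 fold change was -1.22 (95% interval -2.25 to -0.18, edgeR adjusted p 0.125), and the gene did not pass the threshold in this fit. It passed under DESeq2 (adjusted p 0.0261) and in edgeR with no filter (adjusted p 0.0219). The ratio of *Igf2* to *Igf1* in TPM was 4.48, 2.35 and 2.56 for AAV-CTRL and 16.6, 1.88 and 3.80 for AAV-VEGF-C. The groups overlapped and the highest ratio came from AAV-VEGF-C 1, where *Igf1* had its 26 counts. *Igf2* lies on chromosome 7 (142650766 to 142666816 of GRCm38, minus strand) and shares exon bases with the gene Gm49394 of the same strand, which makes its counts uncertain. The files gave Gm49394 at most 24.0 counts and *Igf2* at least 310.

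Neither receptor passed the threshold in the main edgeR fit, while *Igf2r* passed it under DESeq2 (adjusted p 0.0292) and in edgeR with no filter (adjusted p 0.0127). *Igf2r* was at 23.2, 11.9 and 23.0 TPM for AAV-CTRL and at 1.59, 5.23 and 7.88 TPM for AAV-VEGF-C, with no overlap (log2 fold change -1.20, SE 0.39, edgeR adjusted p 0.0926). *Igf1r* was at 5.73, 8.89 and 17.4 TPM for AAV-CTRL and at 2.57, 5.14 and 5.64 TPM for AAV-VEGF-C. In TPM its groups did not overlap, but in scaled CPM they did, and the log2 fold change of -0.29 (95% interval -0.91 to 0.33, edgeR adjusted p 0.522) turned positive with scaling on the 2000 most abundant genes. A fall of *Igf1r* by less than 0.91 on the log2 scale therefore could not be told from no change. The ratio of *Igf2r* to *Igf1r* in TPM was 4.05, 1.34 and 1.33 for AAV-CTRL and 0.617, 1.02 and 1.40 for AAV-VEGF-C, and the groups overlapped. *Igf2r* (chromosome 17, 12682406 to 12769664) is overlapped on the other strand by the noncoding RNA *Airn*, which silences its paternal copy. The use of strand in counting is not given in the sources used here, so the 2 cannot be fully separated.

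Among the binding proteins 0 of 6 passed the threshold in the main edgeR fit. There 2 were lower at an unadjusted p under 0.05, against 9.11% of all genes. With no filter on low counts *Igfbp3*, *Igfbp5*, *Igfbp6* and *Igfbp7* passed. The summed TPM of the 6 binding proteins was 2184, 1200 and 2231 in AAV-CTRL 1, 2 and 3 and 269, 437 and 739 in AAV-VEGF-C. The log2 difference of these sums was -2.02 in TPM and -1.25 in CPM, so the length-corrected unit gave the larger difference. TPM fell for abundant genes in general. By limma on log2(TPM + 1) the median log2 fold change was -1.29 over all genes with a mean TPM of 5 or more. It was -1.60 over those with 50 or more. The log2 fold change of *Igfbp5* was -1.25 (SE 0.57, edgeR adjusted p 0.203), that of *Igfbp4* was -0.65 (SE 0.37, adjusted p 0.298) and that of *Igfbp7*, whose product lies in vascular basement membranes and binds IGFs weakly, was -0.93 (SE 0.30, adjusted p 0.0879). *Igfbp7* was at 124, 106 and 242 TPM for AAV-CTRL and at 17.9, 30.7 and 60.2 TPM for AAV-VEGF-C, and these groups did not overlap.

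The promoters of the leading pair of binding proteins are printed because together these 2 genes gave most of the binding protein transcripts in every library. All 10 members had RefSeq promoters on GRCm38.p6, in 14 windows. The 250 bases before the RefSeq start are shown 5′ to 3′, and capitals mark TATAAA, the TATA box letters, on either strand.
Igfbp4: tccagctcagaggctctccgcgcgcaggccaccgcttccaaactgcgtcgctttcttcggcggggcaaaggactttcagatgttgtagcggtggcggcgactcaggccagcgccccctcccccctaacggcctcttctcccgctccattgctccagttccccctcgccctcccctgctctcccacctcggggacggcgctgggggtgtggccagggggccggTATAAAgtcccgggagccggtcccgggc
Igfbp5: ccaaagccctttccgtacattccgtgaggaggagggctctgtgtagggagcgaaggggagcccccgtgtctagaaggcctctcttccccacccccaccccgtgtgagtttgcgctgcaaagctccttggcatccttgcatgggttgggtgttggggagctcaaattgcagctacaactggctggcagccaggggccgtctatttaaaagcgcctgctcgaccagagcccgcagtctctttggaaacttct
The *Igfbp4* window is chr11:99040994-99041243 on the plus strand, with 69.2% G and C, and the *Igfbp5* window is chr1:72874866-72875115 on the minus strand, with 58.8%. The *Igfbp5* window reaches into the gene span used for positions below, which ends at 72874884. Only exact letters were sought, so near matches were not counted. TATAAA was found once in the *Igfbp4* window and not in that of *Igfbp5*. It was found in 2 of the 14 windows of the members and in 12.4% of all 32851 promoter windows of that length. GGGCGG, the GC box letters, was found in 6 of the 14 and in 32.7% of all windows, CCAAT in 3 and 33.8%, and TGTTTAC, the core recognised by forkhead factors, in 0 and 3.17%. No motif of the 4 contains another, and all were searched on both strands.

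The 6 binding proteins were also compared as shares of their summed TPM. *Igfbp5* took 57.6% ± 7.40 for AAV-CTRL and 51.9% ± 1.17 for AAV-VEGF-C (SD, n = 3). *Igfbp4* took 26.4% ± 5.93 and 33.7% ± 3.66, and *Igfbp7* took 8.45% ± 2.60 and 7.27% ± 0.775. *Igfbp6*, *Igfbp2* and *Igfbp3* each took less than 5% in every library. The ranges of the 2 groups overlapped for each of the 6 shares.

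**Figure D3:**
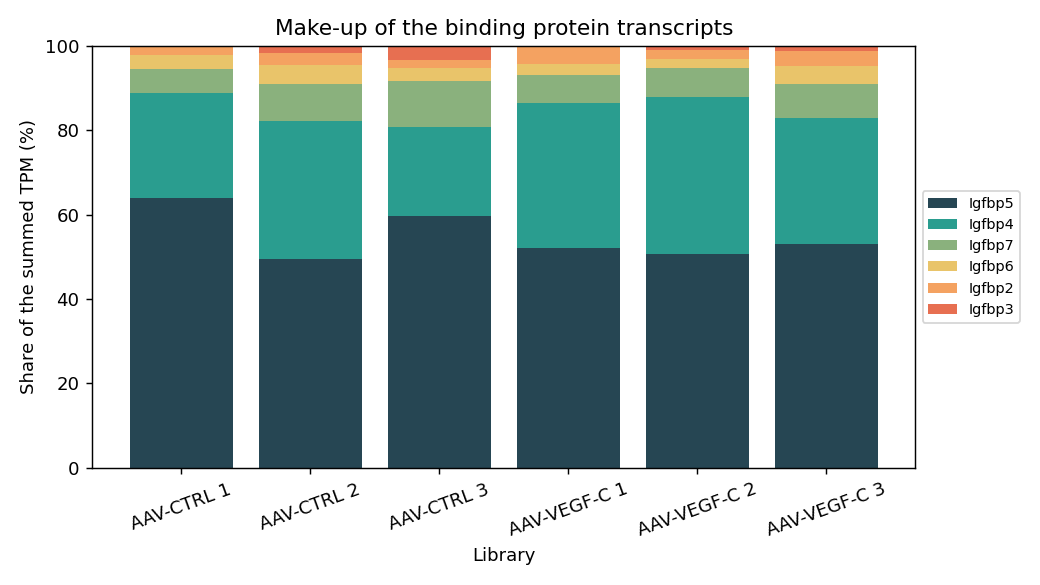
Share (%) of each binding protein in the summed TPM of the 6 binding proteins, one bar per library. *Igfbp5* and *Igfbp4* fill most of every bar, with *Igfbp5* at 49.4% to 63.8% in AAV-CTRL and 50.6% to 52.9% in AAV-VEGF-C.

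*Igfbp3*, which encodes the main IGF carrier of blood plasma, spread widely between the repeats of the experiment. It was at 2.28, 19.1 and 76.8 TPM in AAV-CTRL 1, 2 and 3 and at 0.170, 4.41 and 8.27 TPM in AAV-VEGF-C, on 65, 588 and 2732 counts and on 1, 38 and 144 counts. The groups overlapped, because AAV-CTRL 1 was lower than AAV-VEGF-C 2 and 3. Within experiments 1, 2 and 3, however, the log2 ratio of scaled CPM was -1.96, -1.44 and -2.15. Fitted by group only the log2 fold change was -1.80 (SE 1.01, edgeR adjusted p 0.285), and with the experiment as a block it was -1.85 (SE 0.33, edgeR adjusted p 0.0100). With this block *Igfbp3* and *Igf1* (adjusted p 0.0284) were lower, 2 of the 10 members, against 2.07% of all genes and 4.64% of those with a mean TPM of 5 or more. Without experiment 1, whose AAV-VEGF-C library held 1 count, the group-only fit of edgeR called it as well (-1.97, adjusted p 0.0421). Without AAV-CTRL 3, its highest library, the value was -0.81 (edgeR adjusted p 0.637), and limma's voom with sample weights gave -0.88 (adjusted p 0.573).

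Markers of blood endothelium followed *Igfbp3* in part. In TPM their 7 genes summed to 93.7, 253 and 754 TPM in AAV-CTRL 1, 2 and 3 and to 44.9, 106 and 86.0 TPM in AAV-VEGF-C. The order of the AAV-CTRL libraries was the same for *Igfbp3* and for this sum, but within AAV-VEGF-C the sum was highest in library 2 and *Igfbp3* in library 3. In CPM the marker sum of experiment 1 was 336 for AAV-CTRL and 473 for AAV-VEGF-C, while *Igfbp3* was at 9.95 and 1.77 CPM. *Ly6c1* was at 0 in AAV-VEGF-C 1, and *Igfbp3* per unit of the sum was 0.0243, 0.0755 and 0.102 for AAV-CTRL and 0.00379, 0.0417 and 0.0962 for AAV-VEGF-C, lower for AAV-VEGF-C within each experiment. The part of these cells in the result was not tested.

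**Figure D4:**
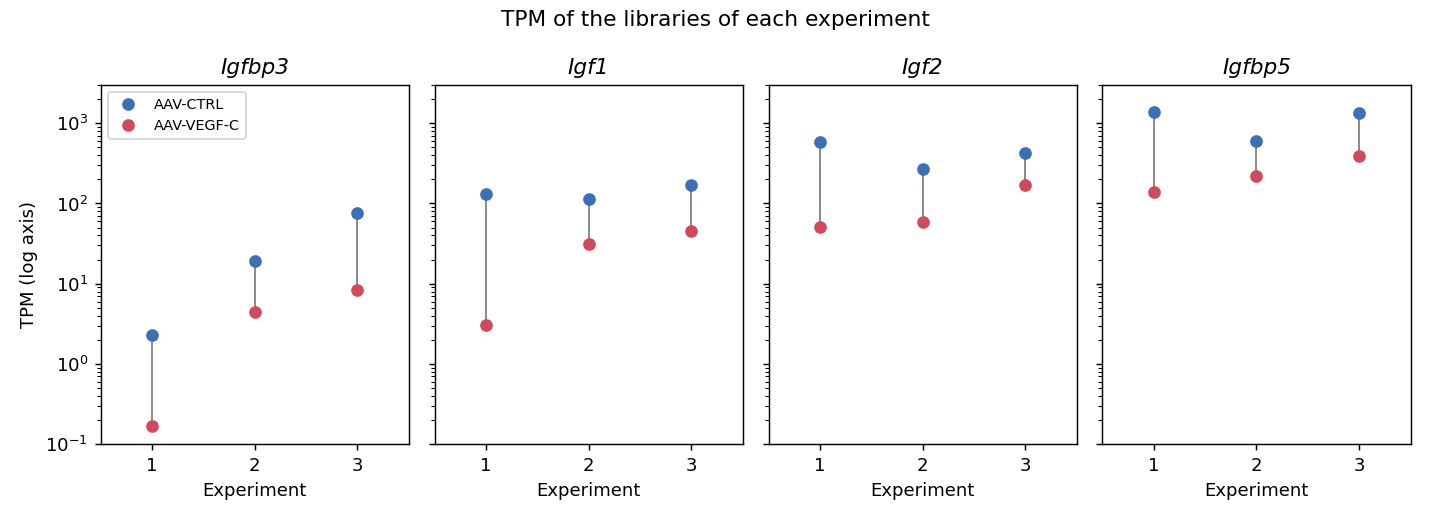
TPM (log axis) of *Igfbp3*, *Igf1*, *Igf2* and *Igfbp5* by experiment, with a grey line joining the AAV-CTRL and AAV-VEGF-C libraries of the same repeat. *Igfbp3* runs from 2.28 to 76.8 TPM within AAV-CTRL but is lower in AAV-VEGF-C in each of the 3 experiments.

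*Igfbp6*, which encodes a binding protein that prefers IGF-II, was at 72.5, 54.0 and 68.8 TPM for AAV-CTRL and at 7.06, 9.35 and 31.1 TPM for AAV-VEGF-C (log2 fold change -1.07, SE 0.43, edgeR adjusted p 0.155). Its log2 ratio of scaled CPM was -1.67 and -1.72 in experiments 1 and 2 and 0.0047 in experiment 3, *Igfbp2*, whose product also acts on integrins, was at 42.5, 33.8 and 41.2 TPM for AAV-CTRL and at 11.5, 8.77 and 27.4 TPM for AAV-VEGF-C. In scaled CPM its groups overlapped, and the log2 fold change of -0.20 (95% interval -1.18 to 0.78, edgeR adjusted p 0.803) turned positive with scaling on the 2000 most abundant genes. By sign alone, with no tolerance, the other 8 members had a lower scaled CPM for AAV-VEGF-C in all 3 experiments, among them *Igf1r* by as little as -0.039 and -0.0062 in experiments 1 and 2, as did 27.9% of all tested genes and 49.7% of those with a mean TPM of 5 or more.

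*Igfbp2* and *Igfbp5* are neighbours on chromosome 1 (72824503 to 72852474 on the plus strand and 72857932 to 72874884 on the minus strand of GRCm38), 5457 bases apart with 0 annotated genes between them. They had log2 fold changes of -0.20 and -1.25, and neither passed the threshold in the main edgeR fit. *Igf1* lies on chromosome 10 (87858265 to 87937042, plus strand), *Igf1r* on 7 (67952827 to 68233668, plus), *Igfbp4* on 11 (99041244 to 99054392, plus), *Igfbp6* on 15 (102144362 to 102149511, plus) and *Igfbp7* on 5 (77349240 to 77408041, minus), where its exons overlap those of *Polr2b* on the other strand. *Igfbp3* (7206086 to 7213923, minus strand) lies 3539 bases from *Igfbp1* on chromosome 11. *Igfbp1* had at most 6 counts in any library and was not tested. *Igf2* lies 72622 bases from *H19*, the imprinted noncoding RNA that shares its enhancers. *H19* had a mean of 442 TPM over the 6 libraries, and its log2 fold change was -1.30 (SE 0.58, edgeR adjusted p 0.192), beside -1.22 for *Igf2*. *Airn* had -0.64 (adjusted p 0.331) beside -1.20 for *Igf2r*, and *Igf2os*, antisense to *Igf2*, had -0.094 (adjusted p 0.959).

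Other genes of the pathway were read from lists. Of 13 extracellular genes (proteases, further binding proteins and the insulin receptor) 11 were tested, and by edgeR 1 was higher and 0 were lower, with 4 at an unadjusted p under 0.05 and a median log2 fold change of -0.64. Of all tested genes 10.5% were higher and 0.659% lower, and 4905 of 17459 had such an unadjusted p. The higher gene was *Igfbpl1*, a relative of the binding proteins, which rested on 0, 0 and 1 counts for AAV-CTRL and on 6, 8 and 15 for AAV-VEGF-C (adjusted p 0.0193). The most abundant genes of the list were *Ctsd*, a lysosomal protease that can cut binding proteins, at -0.70 (edgeR adjusted p 0.196), the binding protein protease *Htra1* at -1.34 (adjusted p 0.0738) and its relative *Htra3* at -0.64 (adjusted p 0.373). With the block *Htra1* was lower (edgeR adjusted p 0.0262) and *Stc2*, whose product inhibits PAPP-A, was higher (adjusted p 0.0248). Of all 17459 genes 362 were lower and 2241 higher with the block. *Stc2* rested on 54, 26 and 38 counts for AAV-CTRL and on 15.5, 15 and 32.1 for AAV-VEGF-C. Its groups overlapped in TPM, and its edgeR adjusted p by group only was 0.149.

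Of 35 intracellular genes from the receptor substrates to AKT, mTOR, FOXO and the MAP kinases, 34 were tested, and by edgeR 0 were higher and 0 were lower, with 6 at an unadjusted p under 0.05, where all tested genes had 4905 of 17459 in either direction. Their log2 fold changes ran from -1.20 to 0.76 with a median of -0.46, beside -0.41 for genes with a mean TPM of 5 or more. *Akt1*, a kinase at the centre of the pathway, had -0.28 (adjusted p 0.544), the receptor adaptor *Grb10* had -1.20 (adjusted p 0.101) and *Mapk3*, which encodes ERK1, had -0.85 (adjusted p 0.110). *Grb10* was lower with the block (adjusted p 0.0223). Under DESeq2, 3 genes of both lists together were higher and 4 were lower, where all 29007 genes had 5669 higher and 504 lower.

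Of the CCN family, matrix proteins that share the IGF-binding domain, 5 of 6 were tested and 0 passed by edgeR, with 0 at an unadjusted p under 0.05. *Ccn1*, *Ccn2* and *Ccn3* had log2 fold changes of -0.94, -0.82 and -0.63. Of the 3 genes for proteins that bind *Igf2* mRNA, 2 were tested and *Igf2bp1* was higher (edgeR adjusted p 0.0193), on 1, 4 and 3 counts for AAV-CTRL and 3, 6 and 26 for AAV-VEGF-C. Its mean was 0.284 TPM, and the 1368 tested genes with a mean under 0.5 TPM had a median log2 fold change of 3.66. *Igf2bp2* had 1.44 (adjusted p 0.137), and *Igf2bp3* was not tested. The silent gene families described above took 2996 to 7190 CPM in the libraries in which these low genes were high, and their part in the result was not tested.

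Fibroblast markers moved with the members, as did those of some other cells. By edgeR all 7 blood endothelial and all 8 mural markers tested had a negative log2 fold change. The median was -1.16 and -0.84 for these lists and -1.02 for fibroblasts. It was 0.18 for lymphatic endothelium, -0.094 for leukocytes, -0.0028 for bone and 0.87 for Schwann cells and glia. The summed TPM of the 10 genes was 2924, 1606 and 2869 in AAV-CTRL 1, 2 and 3 and 327, 537 and 970 in AAV-VEGF-C. Per unit of the fibroblast marker sum it was 1.36, 1.56 and 1.59 for AAV-CTRL and 1.26, 1.30 and 1.13 for AAV-VEGF-C. The groups thus stayed apart on this ratio, with a narrower gap than in TPM. The ratio depends on the markers summed. *Col1a1* and *Col1a2*, the largest parts of the sum, had log2 fold changes of -0.65 and -0.79. *Dcn* and *Lum* had -1.69 and -1.61, beside a median of -1.13 for the 10 members. No ratio to a single marker was taken. For *Igf2* alone the ratio was 0.269, 0.262 and 0.238 for AAV-CTRL and 0.195, 0.142 and 0.201 for AAV-VEGF-C, with no overlap. For *Igfbp5* it was 0.647, 0.576 and 0.736 for AAV-CTRL and 0.539, 0.535 and 0.457 for AAV-VEGF-C, also with no overlap. For *Igf1* and *Igfbp4* the groups overlapped. The ratio was not taken for the remaining members or for genes outside the list, so no share of all genes can be set beside these results. The part of fibroblasts in the result was not tested. Per unit of the lymphatic marker sum the sum of the 10 genes was 5.09, 3.49 and 5.67 for AAV-CTRL and 0.974, 2.89 and 6.51 for AAV-VEGF-C, and the groups overlapped. Of the 6 fibroblast markers tested, *Dcn*, which encodes the matrix proteoglycan decorin, was lower (log2 fold change -1.69, edgeR adjusted p 0.0287), and all 6 had a negative value. With the block 3 were lower by edgeR, namely *Dcn* (adjusted p 0.0135), *Lum* (0.0439) and *Pdgfra* (0.0495). *Dpt* was not tested and was at 0 in AAV-VEGF-C 1, while *Col1a1* was at 433 to 910 TPM in AAV-CTRL and at 109 to 391 TPM in AAV-VEGF-C.

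Lists for the other cells of the dura gave 0 calls by edgeR for lymphatic endothelium, blood endothelium, mural cells, leukocytes and bone, with 0, 0, 1, 0 and 0 genes at an unadjusted p under 0.05, and 1 higher gene for Schwann cells and glia. The leukocyte markers, among them *Cd68* and *Csf1r* of macrophages, which are a known source of IGF-I and should be left out by the CD45 gate, summed to 24.4, 1827 and 1179 TPM for AAV-CTRL and to 13.9, 857 and 530 TPM for AAV-VEGF-C. In the libraries with the lowest leukocyte sums, AAV-CTRL 1 and AAV-VEGF-C 1, *Igf1* was at 130 and 3.06 TPM. The part of leukocytes in the *Igf1* result was not tested. *Cd3e*, a T cell marker, was at 0 in AAV-CTRL 1 and 3.

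**Figure D5:**
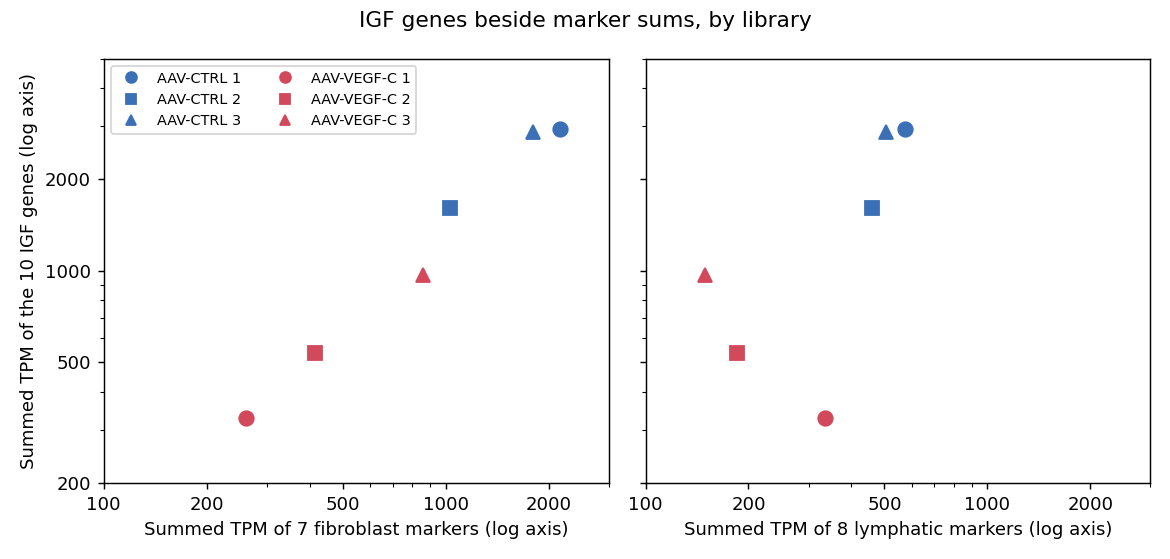
Summed TPM of the 10 IGF genes against the summed TPM of 7 fibroblast markers (left) and 8 lymphatic markers (right), 1 point per library on log axes; colours and shapes give group and experiment. The IGF sum per unit of fibroblast markers lies between 1.13 and 1.59 in all 6 libraries, while per unit of lymphatic markers it runs from 0.974 to 6.51.

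Genes with the most similar pattern were looked up for the 3 most abundant members, as Pearson's r of log2 CPM over the 6 libraries among the 7563 genes whose mean TPM was 5 or more. The points share the split in depth between the groups, so r is a description. For *Igfbp5* they were *Epha3*, *Aebp1* and *Efnb1* (r from 0.996 to 0.998). For *Igf2* they were *Afdn*, *Nid1* and *Col14a1* (r from 0.995 to 0.997), and for *Igfbp4* they were *Acbd3*, *Nfic* and *Ahsa2* (r from 0.993 to 0.997).

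Within AAV-VEGF-C the order of the libraries in TPM followed their depth for most members. AAV-VEGF-C 1, the shallowest library, had the lowest TPM of its group for 9 of the 10 members, and AAV-VEGF-C 3, the deepest, had the highest for all 10. In scaled CPM AAV-VEGF-C 1 was lowest for 3 of the 10, so this order was not kept in that unit. The exact permutation test on TPM gave p = 0.1, the smallest possible, for 9 members and 0.3 for *Igfbp3* (two-sided), and could therefore not reach 0.05.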

How the data were processed

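Sorted dural LECs gave 6 bulk RNA-seq libraries (stranded total RNA kit for low input, per the labels). Estimated counts of each gene were deposited without scaling, and the authors also gave TPM, which they scaled for gene length and library total. The submitters' processing notes name FastQC, Trimmomatic, DRAGEN, Picard and the build mm10. Versions, roles and the use of strand or molecular identifiers are not given in the sources used here. GENCODE M21 (GRCm38) held 98.1% of the 55401 identifiers and gave positions.

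Estimated counts were rounded, filtered by filterByExpr, scaled by TMM and tested with edgeR 4.0.16 (R 4.3.3) by quasi-likelihood, fitted on all genes with Benjamini-Hochberg adjustment at 0.05. Intervals are 95% from that fit. DESeq2 (the method the study used, here in version 1.42.0) and limma 3.58.1 were alternatives, with other scales, filters, libraries, drawn-down counts and a block. One limma filter was added after the data were seen. The scripts were tested on simulated data. Same-numbered libraries deviated together from their group means (correlation across genes 0.40, 0.29 and 0.17 for experiments 1, 2 and 3, although AAV-CTRL 3 correlated at 0.23 with AAV-VEGF-C 2), and the labels tie the numbers to repeats of the experiment, so the numbers pair the libraries. All 10 members were named, other genes came from lists, by those past the threshold or, if fewer than 3, the 3 most abundant. The members and lists were chosen with earlier results of these data known.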

Additional observations from a re-analysis of the deposited data

How the results depend on the processing

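Of the 10 members 1 was lower, and this number was 1 with DESeq2 size factors, under voom with sample weights and without experiment 1 (there *Igfbp3*, while *Igf1* had an adjusted p of 0.0639), 2 with the replicate block and under limma on log2(TPM + 1) with the genes kept by filterByExpr (added after the data were seen), 5 under DESeq2 and 7 with no filter. It was 0 with library size alone, with scaling on the top 2000 genes, with a TPM minimum of 5, under both planned limma fits (log2 of TPM + 1 or + 0.1) and after counts were drawn down to the smallest total, where 5, 1, 1, 8, 8 and 1 members had an unadjusted p under 0.05, as had 4545 of 17459, 4647 of 17459, 1009 of 7563, 6313 of 20978, 5871 of 20978 and 373 of 7687 genes. Of all genes tested in these settings, in the same order, 53, 8, 0, 2, 4 and 0 were called lower. Leaving out one replicate gave 0 in each of the 6 fits, with 3 to 5 members at an unadjusted p under 0.05 and from 0 to 48 of all genes called lower. In those fits from 4538 of 18549 to 5801 of 20106 genes had such a p. The number of members called higher was 0 in every fit. Pathway genes called higher went from 1 to 5 with no filter, 3 under DESeq2 and voom, 2 with the replicate block and without experiment 1, and 0 with the TPM minimum, under both planned limma fits and after drawing down. Those called lower went from 0 to 6 with no filter, 4 under DESeq2, 2 with the replicate block, and 1 under voom, without experiment 1 and under the added limma fit. Leaving out one replicate gave 0 to 2 higher and 0 to 1 lower. Of all genes 9382 were higher and 1175 lower of 44563 with no filter, and 5669 and 504 of 29007 under DESeq2. It was 2380 and 267 of 17459 under voom and 2241 and 362 of 17459 with the replicate block. The replicate block changed no call of a member other than *Igfbp3*. The log2 difference of the binding protein sums was -1.25 in CPM against -2.02 in TPM, and -2.39 to -1.66 without one replicate. *Igf1r* turned to 0.17 with the top 2000 genes as scale, 0.077 with the TPM minimum and 0.43 after drawing down. *Igfbp2* turned to 0.29 and 0.19 in the first 2 of these and ran from -0.53 to 0.068 without one replicate, and *Igf2r* turned to 0.10 after drawing down. *Igfbp3* ran from -2.56 to -0.81 without one replicate, the latter without AAV-CTRL 3. With no filter more genes were tested, and with the TPM minimum and drawing down fewer were. For the other changes the cause was not tested. The adjusted p of *Igf1* ran from 0.00436 to 0.625 over the alternatives. Depth limits AAV-VEGF-C 1, where *Igfbp3* had 1 count, *Igfbp6* 22 and *Igf1* 26.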
